A study of Mus musculus with 24 samples.

Results

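The glucocorticoid receptor gene (Nr3c1), the gene of the enzyme that makes its ligand inside cells (Hsd11b1) and 8 genes that the receptor is known to switch on were followed in the lungs of aged mice challenged with house-dust mite (HDM) and treated with dexamethasone (Dex), a synthetic glucocorticoid. The 10 genes were taken by symbol from 23891 genes in the table, and all 10 were measured in every one of 24 left lung lobes. The question was whether a response of these genes to Dex was left in the lung at harvest. Aged C57BL/6 mice (80 wk) had received saline (saline group, n = 5), HDM (n = 7) or HDM with Dex (HDM + Dex, n = 7), and naive adult mice (20 wk, n = 5) had received saline. HDM was instilled into the nose at 50 µg per dose, in a sensitization phase before day 11 and as challenges from day 11 to day 27. Dex was injected into the peritoneum at 4 mg/kg every 72 h. Challenged mice were killed 24 h after their last dose of HDM. The time from the last Dex dose to harvest is not given in the sources used here. No group received Dex without HDM, so a Dex effect could be read only on top of HDM. Mice of both sexes were used by the study's methods. Each sample was 1 mouse, and levels are CPM, the read count of a gene scaled to a common total per sample.

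Without hormone, the glucocorticoid receptor is held in the cytoplasm by a chaperone complex with heat shock proteins and immunophilins. A ligand such as corticosterone or Dex releases it to the nucleus, where it binds palindromic response elements and raises transcription of its targets, and it also represses genes driven by NF-kB and AP-1. Several targets restrain the hormone or inflammation in turn, and in lung and airway cells they are used as a readout of steroid action. Hsd11b1 encodes 11β-hydroxysteroid dehydrogenase type 1, which regenerates active glucocorticoid from its inert keto form.

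Promoter sequences were compared with the RefSeq promoter table (GRCm38.p6), which covers 300 bases at each annotated start, 250 of them before it. For 8 of the 10 genes the table held 16 such windows. Both strands were searched. The full palindromic response element, which is the arm AGAACA, any 3 bases and the reversed arm TGTTCT, was present in 3 of 32851 windows in the table (0.00913%), 1 of which was a window of Sgk1, 189 bases before one of its starts. A looser palindrome, GNACA, any 3 bases and TGTNC, was present in 0.475% of all windows and, among the 8 genes, in the same window of Sgk1, where it overlaps the full element. The E-box CACGTG, which the circadian clock factors bind, was present in windows of Sgk1, Per1, Dusp1 and Fkbp5 and in 7.15% of all windows. The cAMP response element TGACGTCA was present in a window of Dusp1 and in 1.79% of all windows. A site for NF-kB, the factor whose inhibitor Nfkbia encodes, was present in windows of Nfkbia and Tsc22d3 and in 8.46% of all windows. The windows end near the start site, so distal response elements were outside them. Below, 120 bases of 5 windows are shown with the named motif in capitals, since these genes are followed in each mouse and Per1 varied between mice with both Dusp1 and Sgk1. Sgk1 and Per1 lie on the plus strand, the others on the minus strand, and each sequence is written in the direction of transcription.
Sgk1, chr10:21993640-21993759, response element: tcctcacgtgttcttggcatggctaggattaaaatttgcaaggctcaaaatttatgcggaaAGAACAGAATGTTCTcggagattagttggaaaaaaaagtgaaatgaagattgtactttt
Per1, chr11:69098719-69098838, E-box: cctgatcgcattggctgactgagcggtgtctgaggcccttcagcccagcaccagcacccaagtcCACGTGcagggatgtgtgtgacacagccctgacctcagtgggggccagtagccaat
Dusp1, chr17:26508553-26508672, cAMP response element and E-box: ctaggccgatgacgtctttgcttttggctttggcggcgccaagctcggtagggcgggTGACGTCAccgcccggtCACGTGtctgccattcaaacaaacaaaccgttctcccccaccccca
Nfkbia, chr12:55492648-55492767, NF-kB site: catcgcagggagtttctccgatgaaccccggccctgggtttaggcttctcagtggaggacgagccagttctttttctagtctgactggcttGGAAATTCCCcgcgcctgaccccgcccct
Fkbp5, chr17:28486260-28486379, E-box: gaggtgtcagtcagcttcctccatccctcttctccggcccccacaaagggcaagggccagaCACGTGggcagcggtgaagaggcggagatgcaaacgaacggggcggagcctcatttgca

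The libraries differed in ways that touch every value below. The depth estimated from the spacing of low values was 10.1 to 33.1 M reads. 7SL RNA, a small cytoplasmic RNA, took 9.92% to 18.1% of the CPM in saline mice, 15% to 34.0% in HDM mice and 11.3% to 31.6% in HDM + Dex mice, and 42.0% in replicate 1 of the naive adult group. The more of the CPM 7SL RNA takes, the lower the CPM of all other genes. A second scale, CPM rescaled by the median of ratios over genes, was therefore computed, and values on it are named as rescaled. By Xist and Ddx3y, 5 of 5 naive adult, 2 of 5 saline, 2 of 7 HDM and 4 of 7 HDM + Dex mice were female. The 5 HDM males had the 5 highest 7SL shares of their group. Type 2 alveolar markers were present in every sample, with a summed level of at least 3210 CPM. Markers of airway epithelium summed to 4900 to 7000 CPM in saline mice, 348 to 2970 CPM in HDM mice and 693 to 5340 CPM in HDM + Dex mice. Markers of heart muscle, which in mice also sheathes the pulmonary veins, summed to 581 to 1090 CPM, 22.9 to 443 CPM and 52.3 to 1270 CPM in the same groups.

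The receptor gene Nr3c1 (chromosome 18) was measured at 241.0, 191.0, 243.3, 221.8 and 170.0 CPM in saline mice 1 to 5. In HDM mice its lowest, median and highest levels were 126.9, 139.7 and 185.8 CPM, and in HDM + Dex mice 124.6, 139.3 and 203.2 CPM. Both challenged groups lay mostly below the saline mice, with some overlap, and close to each other. Hsd11b1 (chr1:193221634-193264075, minus strand) was measured at 73.2, 73.7, 74.5, 61.4 and 85.7 CPM in saline mice. Its levels were 33.1, 42.1 and 55.2 CPM in HDM mice and 32.7, 55.2 and 69.7 CPM in HDM + Dex mice (lowest, median and highest). Every HDM mouse was below every saline mouse, whereas the HDM + Dex mice overlapped with both groups.

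Fkbp5 (chr17:28399094-28517527, minus strand), which encodes an immunophilin that lowers the receptor's affinity for its ligand, is a feedback target used widely to read steroid exposure. It was measured at 15.1, 19.7, 52.3, 55.3 and 174.4 CPM in the saline mice, an 11.5-fold range. HDM mice had 21.2, 37.9 and 59.2 CPM and HDM + Dex mice 22.7, 27.9 and 47.5 CPM as their lowest, median and highest levels. The 14 challenged mice lay inside the range of the 5 saline mice.

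Tsc22d3 (chrX:140539528-140600659, minus strand) encodes GILZ, an inducible leucine zipper protein that binds NF-kB and AP-1 and carries part of the anti-inflammatory action of steroids. Saline mice had 143.7, 131.4, 218.8, 227.9 and 288.3 CPM. The lowest, median and highest levels were 63.4, 104.6 and 115.1 CPM in HDM mice and 56.3, 82.3 and 121.3 CPM in HDM + Dex mice. All 14 challenged mice were below all 5 saline mice.

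Nfkbia (chr12:55489410-55492647, minus strand) encodes IκBα, which keeps NF-kB in the cytoplasm and is itself induced by NF-kB. It was measured at 156.9, 173.6, 148.9, 234.0 and 135.1 CPM in saline mice. HDM mice ranged from 67.7 over a median of 114.3 to 162.7 CPM, and HDM + Dex mice from 71.7 over 94.4 to 123.1 CPM. The HDM + Dex mice did not overlap with the saline mice, and the HDM mice did. Dusp1 (chr17:26505590-26562128, minus strand) encodes a phosphatase that switches off the stress kinases p38 and JNK. Its levels were 216.7, 236.1, 235.5, 447.7 and 203.2 CPM in saline mice. In HDM mice they were 27.1, 132.4 and 201.6 CPM and in HDM + Dex mice 62.4, 102.0 and 269.7 CPM (lowest, median and highest). All HDM mice were below the saline mice, and 1 HDM + Dex mouse was inside their range.

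Among the targets that encode transcription factors, Per1 (chr11:69095217-69109960, plus strand), a repressor of the circadian clock that steroids also induce, was measured at 91.0, 126.7, 104.2, 221.9 and 162.7 CPM in saline mice. HDM mice had 36.7, 81.9 and 105.1 CPM and HDM + Dex mice 37.2, 65.7 and 86.8 CPM. The HDM + Dex mice were all below the saline mice. Zbtb16 (chr9:48654297-48836222, minus strand) encodes PLZF, a zinc finger repressor needed for some innate-like lymphocytes. It was measured at 60.1, 106.7, 310.7, 359.2 and 444.2 CPM in saline mice, at 49.7, 90.6 and 137.7 CPM in HDM mice and at 41.5, 57.6 and 106.7 CPM in HDM + Dex mice. Saline mice 1 and 2 were inside the range of the HDM mice and the other 3 were above it. Klf9 (chr19:23141226-23168134, plus strand), a Krüppel-like factor that answers to steroid and thyroid hormone, was measured at 155.6, 143.5, 209.1, 219.0 and 191.4 CPM in saline mice. HDM mice had 55.6, 92.0 and 117.4 CPM and HDM + Dex mice 66.0, 88.2 and 111.8 CPM. The saline mice were above all challenged mice.

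Sgk1 (chr10:21882184-21999903, plus strand) encodes a serine/threonine kinase that promotes sodium uptake through epithelial channels. It was measured at 95.1, 90.6, 103.9, 178.8 and 95.3 CPM in saline mice. HDM mice had 54.8, 93.2 and 123.8 CPM and HDM + Dex mice 62.1, 76.1 and 104.7 CPM, so that the 3 groups overlapped. Among the 3 aged groups, saline had the highest median for all 10 genes, and the median of the naive adult mice was above it for Hsd11b1, Per1 and Dusp1. Of the challenged groups, HDM was next for 8 of them, whereas for Hsd11b1 the HDM + Dex median was above that of HDM and for Nr3c1 the medians of both challenged groups differed by less than 1 CPM.

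**Figure D1:**
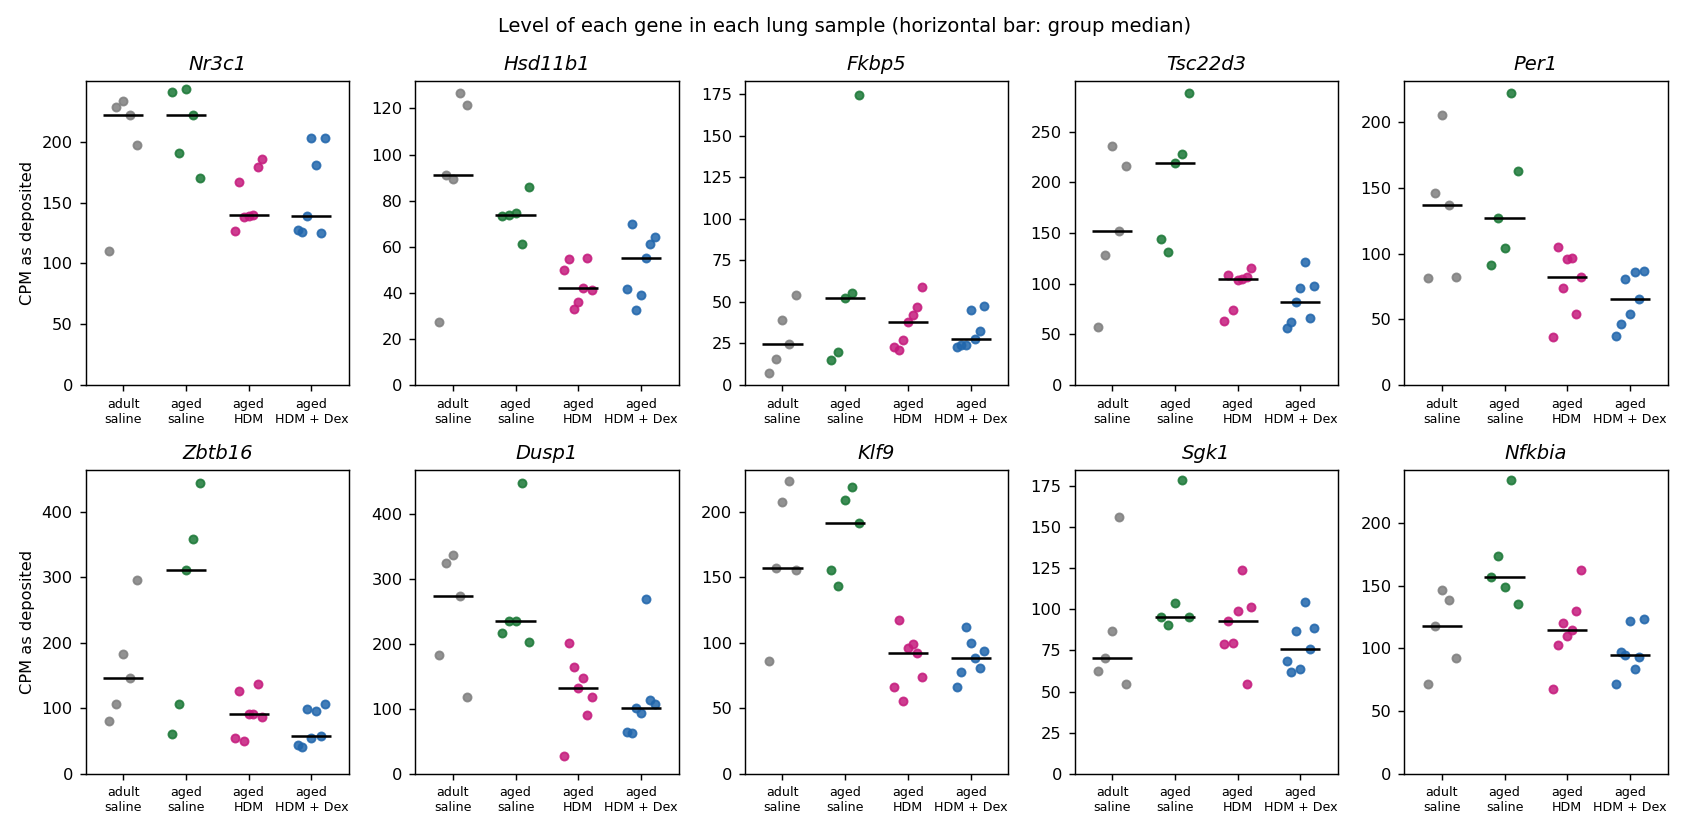
CPM of each of the 10 genes (y axis, from 0) in each mouse (points) of the 4 groups (x axis), with a horizontal bar at the group median. The HDM and HDM + Dex points overlap for all 10 genes, and for Tsc22d3 and Klf9 both lie below every aged saline point.

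Compared with HDM alone, no gene of the 10 was detectably higher or lower in HDM + Dex mice at harvest. Of the 10 genes, 0 passed an adjusted p of 0.05 by limma in either direction (all genes: 0.964%), 0 had an unadjusted p under 0.05 (all genes: 13.5%), and 0 of 10 passed by a two-sided exact permutation test of the mean CPM. After rescaling, all 3 counts were also 0 (all genes: 2.86% passed the adjusted p and 18.6% the unadjusted p). The permutation test was run on the 10 genes only, so its count has no share of all genes beside it. The log2 fold change was below 0 for 7 of 10 genes (all genes: 43.8%), with a median of −0.17 against 0.03 over all genes tested. After rescaling it was below 0 for 8 of 10 (all genes: 50.7%), with a median of −0.22. Tissue markers differed here too. As deposited, 1 of 6 airway epithelium markers was higher (all genes: 0.75%) and 2 of 6 fibroblast markers were lower (all genes: 0.214%). No marker of the other lists passed. An unadjusted p under 0.05 by limma was reached by 6 of 6 airway epithelium and 7 of 8 heart muscle markers (all genes: 13.5%). The part of these tissues in the levels of the 10 genes was not tested.

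For the receptor, HDM + Dex vs. HDM gave a log2 fold change of 0.02 with a 95% confidence interval of −0.27 to 0.31, and for Hsd11b1 it was 0.19 (−0.14 to 0.52). Fkbp5 differed by −0.17 (−0.94 to 0.60), the widest interval of the 10 genes. Among the targets, the narrower intervals belonged to Tsc22d3 at −0.23 (−0.63 to 0.17) and Nfkbia at −0.21 (−0.55 to 0.13). The same held for Sgk1 at −0.18 (−0.53 to 0.18) and Klf9 at 0.06 (−0.26 to 0.38). Per1 differed by −0.23 (−0.73 to 0.26), Zbtb16 by −0.36 (−1.11 to 0.39) and Dusp1 by −0.08 (−0.80 to 0.64). On the fold scale, the upper limits were 1.09-fold for Nfkbia, 1.12-fold for Tsc22d3, 1.13-fold for Sgk1, 1.20-fold for Per1, 1.3-fold for Klf9 and 1.31-fold for Zbtb16. They were 1.51-fold for Fkbp5 and 1.56-fold for Dusp1, so that larger inductions by Dex lay outside the intervals, which are not adjusted for the number of genes.

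Counted over the 49 pairs of an HDM + Dex with an HDM mouse, Tsc22d3 was lower under Dex in 35 pairs, Nfkbia in 34, Per1 and Sgk1 in 33, Dusp1 in 32, Zbtb16 in 31 and Fkbp5 in 27. Nr3c1 was lower in 25 pairs, Klf9 in 23 and Hsd11b1 in 17. Among mice with a 7SL share above 25% (4 HDM + Dex, 5 HDM), means were lower under Dex for 9 of the 10 genes, with the smallest exact permutation p at 0.0714 for Sgk1. Among those below 25% (3 and 2 mice), means were lower for 4 of 10, where the smallest p such a design allows is 0.1. The share of all genes with a lower mean was not computed in either set, so these counts cannot be set against it. Dusp1 stood at 63.8% of the HDM mean in the first set and at 150% in the second. By Xist and Ddx3y, all 5 mice below 25% were female and 8 of the 9 above it were male, so that 7SL share and sex cannot be told apart here. Without HDM replicate 1, which had the lowest Dusp1, Per1 and Nfkbia levels of its group, Nfkbia was lower under Dex by an exact permutation test (p = 0.0408, unadjusted), and by limma no gene passed.

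HDM vs. saline gave lower levels of most of these genes in aged lungs. By limma, 8 of 10 fell (all genes: 21.2% lower and 25.3% in either direction) and 0 rose. The log2 fold change was below 0 for all 10 (all genes: 73.4%), with a median of −0.79 against −0.23 over all genes. In whole lung, fewer cells of a type and less RNA per cell cannot be told apart. The receptor gene Nr3c1 fell by 0.47 ± 0.15 (log2 fold change ± SE, adjusted p = 0.0284) and Hsd11b1 by 0.73 ± 0.18 (adjusted p = 0.00564). Klf9 fell by 1.11 ± 0.17 (adjusted p = 0.000423), from a mean of 183.7 ± 33.0 CPM to 85.7 ± 21.4 CPM (SD, n = 5 and 7). Tsc22d3 fell by 1.02 ± 0.21 (adjusted p = 0.00191), a fitted 49.1% of the saline level. Zbtb16 and Dusp1 each fell by 1.21, with adjusted p of 0.03 and 0.0239. Per1 fell by 0.86 (adjusted p = 0.0213) and Nfkbia by 0.57 (adjusted p = 0.0246). Fkbp5 at −0.33 (adjusted p = 0.573) and Sgk1 at −0.31 (adjusted p = 0.231) did not pass. Groups did not overlap for 4 of the 10 genes, namely Hsd11b1, Tsc22d3, Dusp1 and Klf9 (all genes: 7.69% lower without overlap).

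On the rescaled values, 2 of the 10 genes remained lower in HDM mice (all genes: 11.6% lower), both of them among the 8 above. They were Klf9 at −0.86 (adjusted p = 0.00142) and Tsc22d3 at −0.77 (adjusted p = 0.00355), and their groups did not overlap on this scale either (all genes: 4.14% lower without overlap). The other 6 had rescaled log2 fold changes from −0.22 for Nr3c1 to −0.96 for Zbtb16 and Dusp1, with adjusted p from 0.0545 to 0.138, and Fkbp5 and Sgk1 stood at −0.08 and −0.05. Among mice with a 7SL share below 25% (5 saline, 2 HDM, both HDM mice female), Klf9 was the only member that passed (−1.13, adjusted p = 0.00581). Without saline replicate 4 the number that fell was 3 of 10, and without HDM replicate 1 it was 5 of 10. The share of all genes was not computed for these subsets of mice, so the counts cannot be set against it. Markers of other tissue moved with HDM as well. As deposited (all genes: 21.2% lower), 6 of 6 airway epithelium, 8 of 8 heart muscle, 5 of 6 endothelium and 3 of 6 type 1 alveolar markers fell. After rescaling, 5, 8, 2 and 3 of them fell, and 1 type 1 alveolar marker rose. Of 6 fibroblast markers, 3 fell and 2 rose as deposited, and 1 fell and 2 rose after rescaling. Of 4 adipocyte markers, 3 fell on both scales. Of 5 neutrophil markers, 2 fell as deposited and 1 after rescaling. On both scales, 0 of 6 type 2 alveolar markers passed. The part of these tissues in the lower levels of the 10 genes was not tested.

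**Figure D2:**
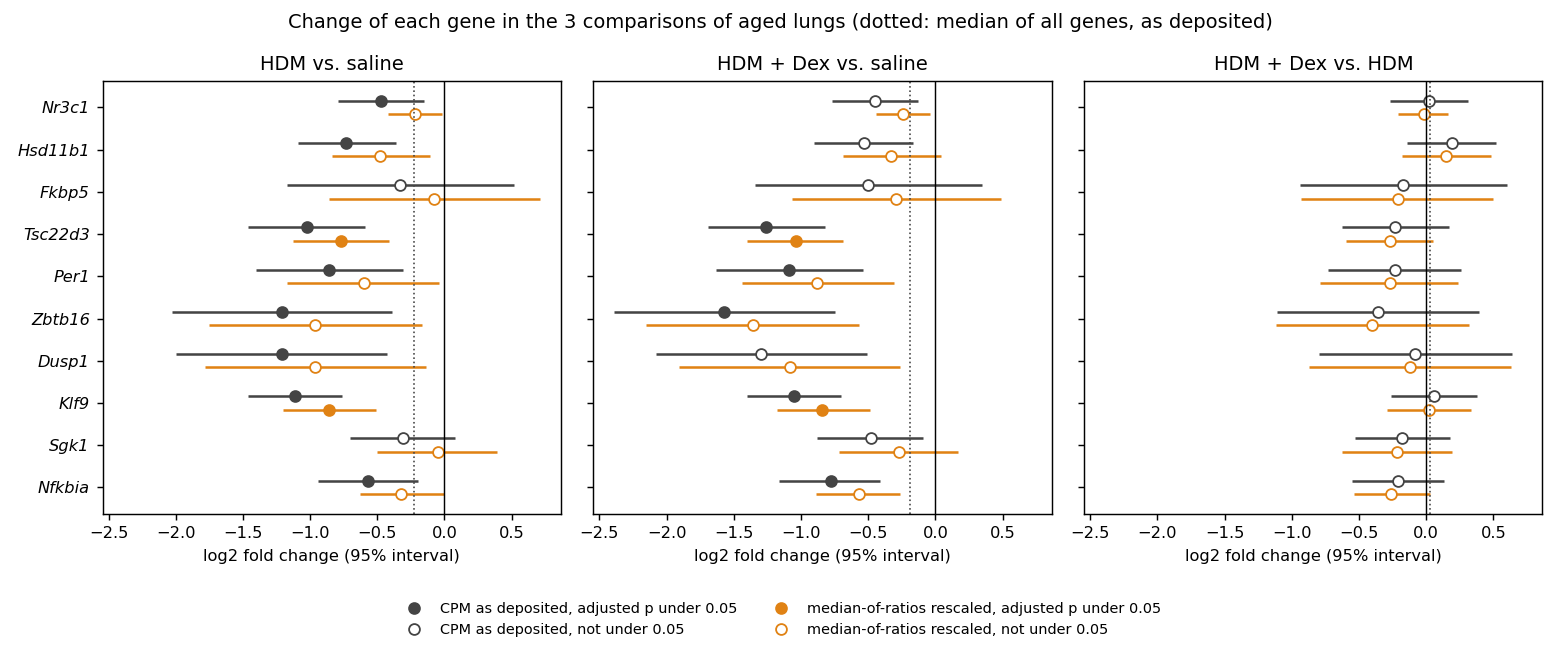
Log2 fold change (x axis) of each gene with its 95% interval in HDM vs. saline, HDM + Dex vs. saline and HDM + Dex vs. HDM, from CPM as deposited (dark) and rescaled (orange); filled points have an adjusted p under 0.05 and the dotted line is the median of all genes as deposited. Tsc22d3 and Klf9 are filled on both scales in both comparisons with saline, and no point is filled in HDM + Dex vs. HDM.

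HDM + Dex vs. saline, which shares the 5 saline mice with the comparison above, again gave lower levels, and no gene passed in the higher direction. Of the 10 genes, 5 fell (all genes: 1.44% lower), 0 rose (all genes: 0.445% higher), and the log2 fold change was below 0 for all 10 (all genes: 77.6%), with a median of −0.92 against −0.19 over all genes. Tsc22d3, the GILZ gene, fell by 1.26 ± 0.21 (SE, adjusted p = 0.00381), to a fitted 41.9% of the saline level. Klf9 fell by 1.05 ± 0.17 (adjusted p = 0.00313), Nfkbia by 0.78 ± 0.18 (adjusted p = 0.0316), Per1 by 1.09 ± 0.26 (adjusted p = 0.0386) and Zbtb16 by 1.57 ± 0.40 (adjusted p = 0.0444). Dusp1 at −1.30 (adjusted p = 0.0744), Hsd11b1 at −0.53 (adjusted p = 0.109), Nr3c1 at −0.45 (adjusted p = 0.117), Sgk1 at −0.48 (adjusted p = 0.162) and Fkbp5 at −0.50 (adjusted p = 0.462) did not pass. Groups did not overlap for 4 of 10, namely Tsc22d3, Per1, Klf9 and Nfkbia (all genes: 1.87% lower without overlap).

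After rescaling, Tsc22d3 (−1.04, adjusted p = 0.00478) and Klf9 (−0.84, adjusted p = 0.016) were still lower than in saline mice (all genes: 0.458% lower). Nfkbia, at −0.57, no longer passed (adjusted p = 0.0656), while its groups, like those of Tsc22d3 and Klf9, still did not overlap (all genes: 1.1% lower without overlap). The count of 5 depended on single mice, being 2 without saline replicate 3, saline replicate 4 or HDM + Dex replicate 1, 2 or 6, and 3 without saline replicate 5 or HDM + Dex replicate 3. Without both saline replicates 4 and 5, which had the highest Zbtb16 and Tsc22d3 levels, it was 0, with Klf9 at −0.93 (adjusted p = 0.0822) and Tsc22d3 at −0.99 (adjusted p = 0.124). How many of all genes passed without these mice was not computed, so the counts cannot be set against a share of all genes.

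Side by side, the means of Tsc22d3 were 202.0 ± 64.8, 96.5 ± 19.5 and 83.2 ± 23.4 CPM (SD) in saline, HDM and HDM + Dex mice. Those of Klf9 were 183.7 ± 33.0, 85.7 ± 21.4 and 88.2 ± 15.1 CPM, and those of Zbtb16 were 256.2 ± 165.6, 91.2 ± 32.9 and 71.4 ± 27.9 CPM. Nfkbia had means of 169.7 ± 38.5, 115.2 ± 28.7 and 97.9 ± 18.8 CPM. For these 4 genes the gap between both challenged groups was smaller than the SD of either group, and the gap to saline was larger than the SD of the challenged groups. It was also larger than the SD of the saline mice, except for Zbtb16 in HDM mice, where it was slightly smaller.

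Aged and adult mice were compared in the groups given saline. All 5 adult mice but only 2 of 5 aged mice were female, so age and sex cannot be fully told apart here. In the saline-treated aged vs. adult mice, 0 of 10 genes passed by limma (all genes: 0.654%), and 1 of 10, Nfkbia, had an unadjusted p under 0.05 (all genes: 11.2%). Nfkbia was measured at 71.4, 118.0, 146.8, 138.1 and 92.3 CPM in adult mice and was 0.60 ± 0.23 higher with age (adjusted p = 0.32; exact permutation p = 0.0317, and 0.0556 after rescaling). Fkbp5 had 7.0, 15.5, 39.0, 24.9 and 54.0 CPM in adult mice and differed by 0.91 (adjusted p = 0.542), a 7.70-fold range within the adult group. The receptor differed by 0.14 and Hsd11b1 by −0.14, and neither passed (adjusted p = 0.784 and 0.849). All genes moved by a median of 0.19 as deposited and 0.00 rescaled, and the direction of Nr3c1, Per1, Dusp1 and Klf9 turned below 0 on rescaling. Adult replicate 1, the library with 42.0% 7SL RNA, had the lowest level of its group for 8 of the 10 genes, and all adult mice were female. Without it, Hsd11b1 was lower in aged mice by an exact permutation test (p = 0.00794, the smallest this design allows), whereas no gene passed by limma.

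Between mice of the same group, levels of several targets varied together. Over the 19 aged mice, with group means of log2(CPM + 1) removed, 41 of 45 pairs of genes had an r above 0, and 11 pairs had a permutation p under 0.05 after adjustment over the 45 pairs. After rescaling, 32 pairs had an r above 0 and 6 passed. The same shares among pairs of all genes were not computed. Whether these targets varied together more than other genes was therefore not tested. Among the aged groups, the saline mice had the widest range for 3 genes, Fkbp5, Tsc22d3 and Zbtb16, and the narrowest for 4, Nr3c1, Hsd11b1, Dusp1 and Klf9. Zbtb16 had a 7.39-fold range in saline mice and was lowest in saline mouse 1 and highest in saline mouse 5, as was Fkbp5. Dusp1 had its widest range in HDM mice, at 7.43-fold.

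Tsc22d3 and Zbtb16 were the pair with the highest r (0.83, adjusted permutation p = 0.0042; rho = 0.72, adjusted permutation p = 0.0154). The r was 0.81 after rescaling, 0.81 without the 2 mice farthest from the median of Tsc22d3, 0.83 within the 10 mice with a 7SL share below 25% and 0.88 within the 9 mice above it. Per1 and Dusp1 had an r of 0.81 (adjusted permutation p = 0.0027; rho = 0.82, adjusted permutation p = 0.00495), 0.82 after rescaling and 0.69 without the 2 farthest mice. Per1 and Sgk1 had an r of 0.73 (adjusted permutation p = 0.0115; rho = 0.78, adjusted permutation p = 0.0102), 0.74 after rescaling and 0.82 without the 2 farthest. These 3 pairs thus held on both scales, as did Zbtb16 with Klf9 (r = 0.72, rescaled 0.59), Tsc22d3 with Per1 (0.67, rescaled 0.69) and Tsc22d3 with Dusp1 (0.56, rescaled 0.61).

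Fkbp5 varied with Tsc22d3 (r = 0.73, adjusted permutation p = 0.0115; rho = 0.76, adjusted permutation p = 0.0102) and with Zbtb16 (r = 0.72, adjusted permutation p = 0.0479; rho = 0.63, adjusted permutation p = 0.0836) as deposited. Both relations missed the threshold after rescaling, at r = 0.62 (adjusted permutation p = 0.0799) and 0.66 (adjusted permutation p = 0.153). Within the mice above a 7SL share of 25% they were 0.36 and 0.11. The receptor gene had its highest r with Nfkbia (0.57, adjusted permutation p = 0.0479; 0.27 after rescaling), and none of the pairs with Hsd11b1 had an r above 0.12 as deposited. Of the 11 pairs, 9 kept an r above 0.5 without the 2 farthest mice. The mice share their group, their 7SL share and, in part, their sex (8 of the 9 mice above a share of 25% were male), and these were not separated further.

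**Figure D3:**
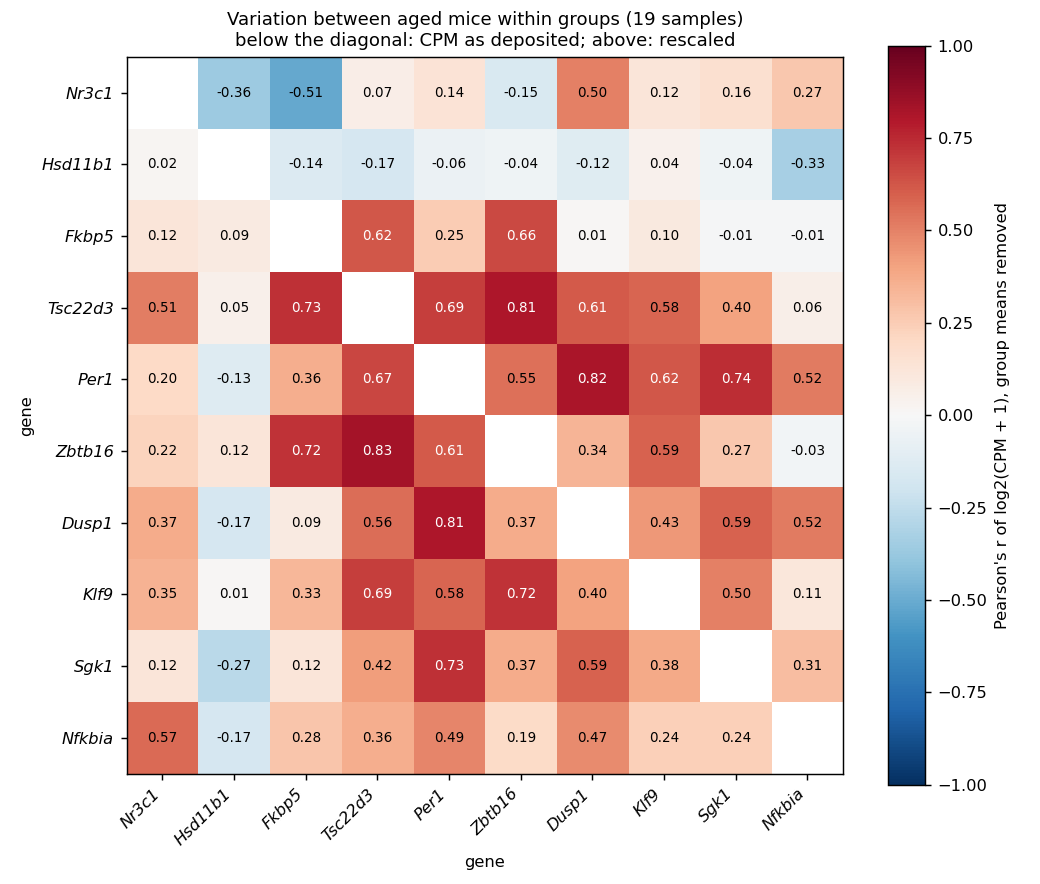
Pearson's r between the 10 genes over 19 aged mice after group means of log2(CPM + 1) were removed (colour and number), from CPM as deposited below the diagonal and rescaled above it. Tsc22d3 with Zbtb16 (0.83 and 0.81) and Per1 with Dusp1 (0.81 and 0.82) are the pairs with the highest values, and those with Hsd11b1 lie between −0.27 and 0.12 as deposited and reach −0.36 (Nr3c1) and −0.33 (Nfkbia) rescaled.

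**Figure D4:**
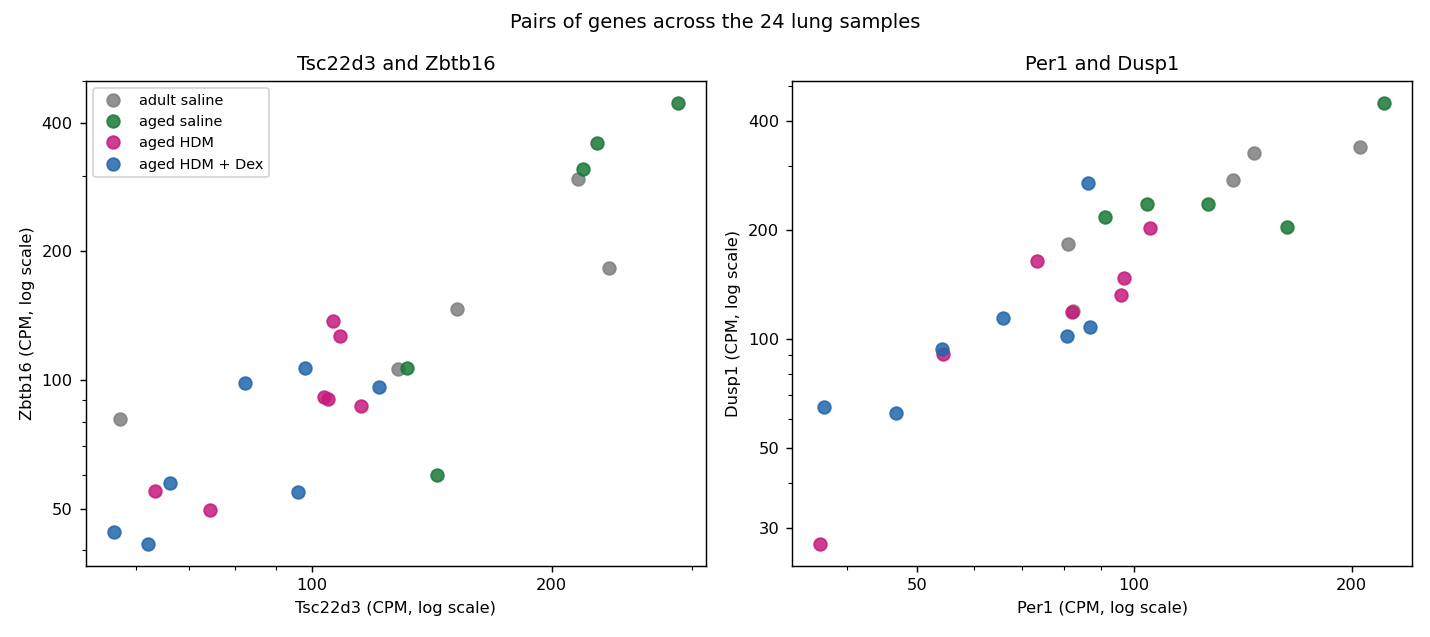
CPM of Tsc22d3 against Zbtb16 and of Per1 against Dusp1 in all 24 mice (log axes, coloured by group). The aged saline mice spread from 131.4 to 288.3 CPM of Tsc22d3 and from 60.1 to 444.2 CPM of Zbtb16, and the challenged mice occupy the lower ranges of both genes.

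Over all 24 mice, the 5 genes with a pattern most like that of Fkbp5 were Tspan11 (r = 0.87), Lrrk2, Osmr and Entpd1 (each 0.85) and Chd9 (0.84). After rescaling, these were 0.82, 0.75, 0.67, 0.78 and 0.80. Other receptor targets were further down the order of all 17744 genes, with Zbtb16 at place 1689 and Tsc22d3 at place 1728 (both r = 0.59). These are descriptions over samples that share group and depth, with no test.

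Other genes known to be induced by the receptor were counted in the same way. Of 30 such genes tested, 0 passed in HDM + Dex vs. HDM (all genes: 0.964%). Their median log2 fold change was −0.15, and 4 had an unadjusted p under 0.05 (all genes: 13.5%). In HDM vs. saline, 16 of 30 fell (all genes: 21.2% lower) and 0 rose, with a median of −0.74, and 10 fell after rescaling (all genes: 11.6%). Pdk4, a kinase that turns off glucose oxidation, fell by 1.97 (7.46 vs. 31.0 CPM, adjusted p = 0.00161). Errfi1, a feedback inhibitor of the epidermal growth factor receptor, fell by 1.69 (88.9 vs. 267.8 CPM, adjusted p = 0.000816), and Fam107a by 1.54 (8.09 vs. 31.1 CPM, adjusted p = 0.0141). Against saline, 10 of 30 were lower in HDM + Dex mice (all genes: 1.44%) and 4 after rescaling (all genes: 0.458%), among them Fam107a at −1.93 (adjusted p = 0.0302), Errfi1 at −1.49 (adjusted p = 0.0151) and the sulfotransferase gene Sult1a1 at −1.35 (adjusted p = 0.0434; rescaled 0.0528).

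Of the genes that the receptor is known to repress, some rose with HDM. Of 18 tested, 7 rose in HDM vs. saline (all genes: 4.04% higher), 0 fell and 11 did not pass, 5 of the 18 had a log2 fold change below 0, and the median was 0.48. After rescaling, 9 rose (all genes: 10.9% higher). The eosinophil attractants Ccl24 (35.1 vs. 0.224 CPM, log2 fold change 3.52 ± 1.01, adjusted p = 0.015) and Ccl11 (30.3 vs. 1.78 CPM, 3.00 ± 0.65, adjusted p = 0.00285) and the collagenase gene Mmp13 (12.5 vs. 0.272 CPM, 2.59 ± 0.57, adjusted p = 0.00305) had the largest changes. In saline mice, Ccl24 and Mmp13 were near the level of 3 reads (0.106 to 0.21 CPM), so that their fold changes depend on the pseudocount of 1 CPM. Ccl24 ran from 0.134 to 107.1 CPM in HDM mice and was lower there than in saline in 8 of 35 pairs of mice. For Ccl11 and Mmp13 these groups did not overlap. With Dex on top of HDM, 16 of 18 had a log2 fold change below 0 (all genes: 43.8%), with a median of −0.40, and 1 passed (all genes: 0.214% lower). This was Nos2, the inducible nitric oxide synthase, which fell from 16.1 to 3.32 CPM (log2 fold change −1.69 ± 0.38, adjusted p = 0.0356; rescaled −1.73, adjusted p = 0.0235). By limma, 0 of 18 passed in HDM + Dex vs. saline, while 6 had an unadjusted p under 0.05 (all genes: 21.2%).

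Of the genes of the receptor's own machinery, most did not pass in HDM vs. saline, where 21.2% of all genes were lower as deposited and 11.6% after rescaling. Of 13 chaperone genes, 5 fell, and 1 after rescaling, which was Ptges3, the gene of the cochaperone p23 (−0.60, adjusted p = 0.00599; rescaled −0.35, adjusted p = 0.00996). Of 13 coregulator genes, 3 fell, a share near that of all genes, and 1 after rescaling, which was Ncoa1, a steroid receptor coactivator (−0.69, adjusted p = 0.00587; rescaled −0.44, adjusted p = 0.00301). Of 8 genes of steroid metabolism and transport, the same number, 3, fell on both scales. They were Por, which feeds electrons to cytochrome P450 enzymes (−0.96), Abcb1a, a drug efflux pump (−0.87), and Nr3c2, the mineralocorticoid receptor (−0.84). None of these 3 lists had a gene that passed in HDM + Dex vs. HDM as deposited (all genes: 0.964%). By limma, 3 of 13 chaperone genes and 0 genes of the other lists had an unadjusted p under 0.05 (all genes: 13.5%). On the rescaled values 1 chaperone gene was higher under Dex (all genes: 1.99% higher). Of the 13 chaperone genes, 2 had a log2 fold change below 0 as deposited (all genes: 43.8%) and 3 after rescaling (all genes: 50.7%). Hsp90aa1 was higher under Dex without overlap as deposited, at 805.5 to 969 CPM against 447.1 to 801.1 CPM (all genes: 0.147%). After rescaling its groups overlapped.

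Per1 and Dusp1 also belong to wider gene groups, the circadian clock and the immediate-early genes. Of 17 other clock genes, 7 fell (all genes: 21.2%) and 1 rose (all genes: 4.04%) in HDM vs. saline, and after rescaling 5 fell (all genes: 11.6%) and 2 rose (all genes: 10.9%). Those that passed as deposited included Arntl, the partner of Clock (−1.29, adjusted p = 0.00241), and Cry1 (−0.94, adjusted p = 0.0015), whereas Bhlhe40 rose (0.62, adjusted p = 0.0328). Of 16 immediate-early genes, 7 fell and 2 rose, and after rescaling 5 fell and 2 rose. Fosb fell by 1.86 (adjusted p = 0.00111) and Jun by 1.06 (adjusted p = 0.000483), while Egr2 rose by 1.20 (adjusted p = 0.0105) and Socs3 by 0.78 (adjusted p = 0.0406). By limma, 0 of the 17 and 0 of the 16 passed in HDM + Dex vs. HDM (all genes: 0.964%), with 3 and 1 at an unadjusted p under 0.05 (all genes: 13.5%). In HDM + Dex vs. saline, 3 of 17 clock genes and 5 of 16 immediate-early genes fell (all genes: 1.44%). The hour of harvest is not given in the sources used here.

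**Figure D5:**
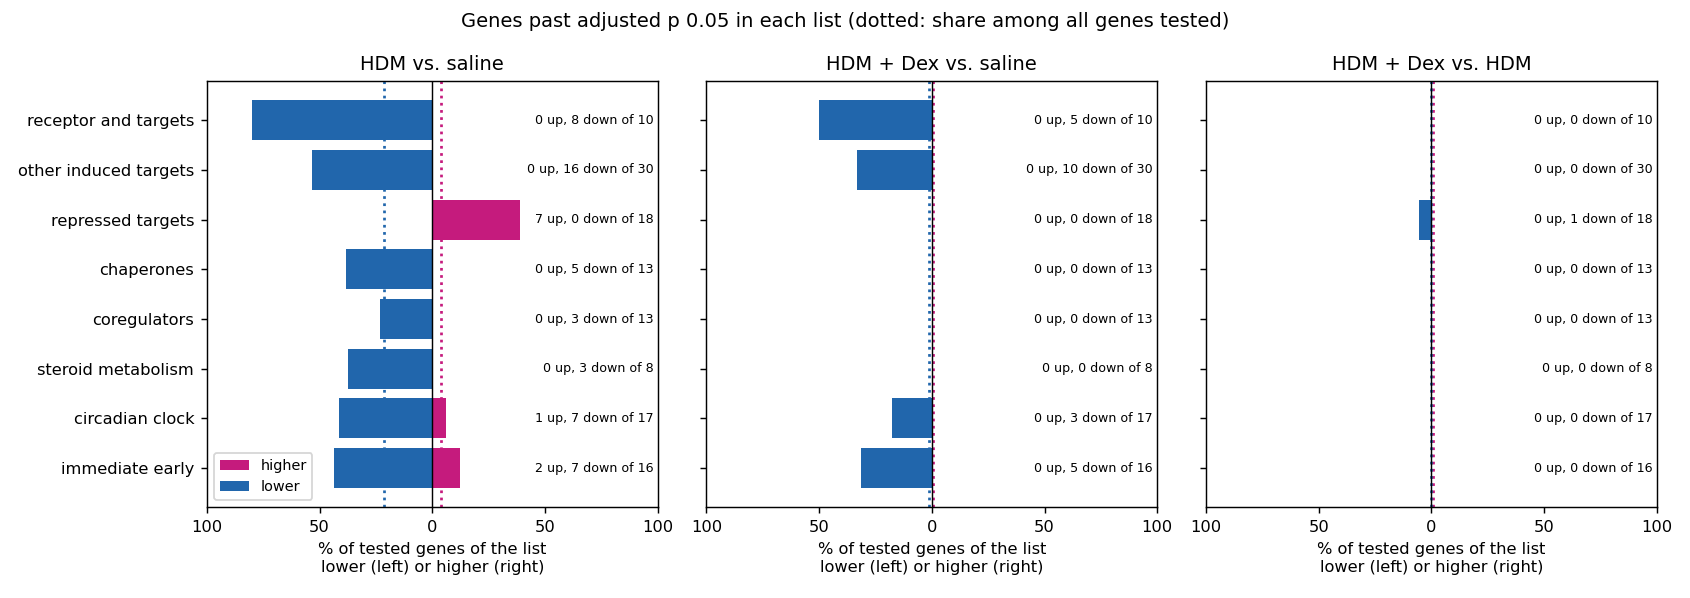
Share of the tested genes of each list that was higher (right) or lower (left) at an adjusted p under 0.05 in 3 comparisons of aged mice, with counts at the right edge and the share among all genes tested as dotted lines (HDM vs. saline, 21.2% lower and 4.04% higher). The receptor and its targets show 8 of 10 lower with HDM and 5 of 10 lower with HDM + Dex against saline (all genes: 1.44% lower). In HDM + Dex vs. HDM they show 0 of 10 (all genes: 0.964% in either direction). Bars are from CPM as deposited. After rescaling, which is not drawn, 2, 2 and 0 of the 10 genes passed in these comparisons (all genes: 11.6% lower, 0.458% lower and 2.86% in either direction).

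Reads of some of these genes could include those of overlapping genes, since the handling of strand is not given in the sources used here. Dusp1 overlaps Ergic1 (30.2 CPM on average) and Hsd11b1 overlaps Lamb3 (45.9 CPM) on the opposite strand. Fkbp5 overlaps Gm49839, an uncharacterised transcript on its own strand with 11.5 CPM on average.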

How the data were processed

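Left lung lobes of 24 mice, 1 sample per mouse, were grouped by the sample labels. Per the study's methods, stranded mRNA libraries were read from both ends and processed by the authors with a Picard-STAR-limma pipeline. The submitters' processing notes name FastQC, STAR, DESeq2 and mm9 without a role, whereas 23142 of 23891 genes had the chromosome and start of the GRCm38 annotation (GENCODE M21). The authors deposited CPM with a constant of 1e-04 added, and 80.5% to 85.6% of low values were whole multiples (within 0.05) of what 1 read is worth, so counts were not recovered. With 3 reads as the smallest detectable amount, the limit was 0.0906 to 0.298 CPM, for counting error only.

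Tests used limma 3.58.1 (R 4.3.3) on log2(CPM + 1) of 17744 genes averaging at least 1 CPM, with an eBayes trend and Benjamini-Hochberg adjustment over all of them. The 19 aged samples shared one fit and the 10 naive samples another. A rescaled table used median-of-ratios factors (0.607 to 1.23; 17704 genes). Two-sided exact permutation tests compared mean CPM, and correlations used 100000 permutations within groups (scipy 1.17.1). The fit of HDM + Dex vs. HDM was also tested on simulated data with known changes and a set dispersion of 0.1. It recovered 61 of 97 genes with a true absolute log2 fold change of 1 (62.9%) and 98 of 98 with one of 2. In that run, 13 unchanged genes were called. All 10 members were named. From each other list, up to 3 genes with the largest change in each direction among those that passed were named, and the 5 genes most correlated with Fkbp5. The members and lists were chosen with earlier results of these data known. Alternatives were 2 other pseudocounts (0.1 and 5), no filter or one at 5 CPM, 2 other scalings, other samples in the fit, no trend, quality weights, a sex covariate, a replicate block and leaving out each sample. Leaving out saline replicates 4 and 5, or samples with a 7SL share above 25%, was added after seeing the data.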

Additional observations from a re-analysis of the deposited data

Results flagged for a closer look

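In 4 of the 40 sets of values (10 genes in 4 groups), 1 mouse stood far from the others of its group by Dixon's test, where chance gives about 2, and causes were not tested. Fkbp5 was at 174.4 CPM in saline replicate 5, against 15.1 to 55.3 CPM in the other 4 saline mice. Dusp1 was at 447.7 CPM in saline replicate 4, against 203.2 to 236.1 CPM, and Sgk1 was at 178.8 CPM in the same mouse, against 90.6 to 103.9 CPM. Dusp1 was also at 269.7 CPM in HDM + Dex replicate 5, against 62.4 to 113.9 CPM in the other 6 mice. Without saline replicate 5, Fkbp5 in HDM vs. saline was at 0.17 rather than −0.33, and it passed in neither case.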

How the results depend on the processing

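In HDM + Dex vs. HDM and in aged vs. adult, 0 of 10 genes passed by limma under every alternative run. The share of all genes that passed was computed only for limma on CPM as deposited and after median-of-ratios rescaling. Counts under the other alternatives below cannot be set against such a share. In HDM vs. saline, where 8 passed, the count was 2 after median-of-ratios rescaling, 3 after quantile normalization, 4 without saline replicates 4 and 5, 1 in samples with a 7SL share below 25%, and 3 to 8 with each sample left out (3 without saline replicate 4, 5 without HDM replicate 1). In HDM + Dex vs. saline, where 5 passed, it was 3 without a filter or without a trend, 2 after either rescaling or quantile normalization, 9 with quality weights, 8 with a sex covariate, 0 without saline replicates 4 and 5, 1 in samples below 25% 7SL, and 2 to 6 with each sample left out. Klf9 passed under all 33 alternatives in HDM vs. saline (adjusted p 2.3e-05 to 0.00581) and Tsc22d3 under 32 of 33 (0.000502 to 0.0853). Same-numbered samples did not deviate together (correlations from −0.24 to 0.41), so the numbers were not taken to pair mice. With a replicate block, the counts were 8 in HDM vs. saline, 7 in HDM + Dex vs. saline and 0 in the other comparisons. By exact permutation, 0 genes in HDM + Dex vs. HDM became 0 to 1 with each sample left out, and 1 gene in aged vs. adult became 0 after rescaling and 0 to 2 with each sample left out. Of the 45 pairs, 11 passed by r, 6 after rescaling and 7 by Spearman's rho; leaving out the 2 farthest mice gave an r per pair and no count of tests.

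Directions turned as follows, in no case for a value that passed, and the cause was not tested. In HDM + Dex vs. HDM, Nr3c1 was at −0.02 after rescaling and −0.08 with a sex covariate, Dusp1 at 0.03 and Klf9 at −0.01 with quality weights, and Per1 at 0.15, Dusp1 at 0.43 and Sgk1 at 0.17 in samples below 25% 7SL; with each sample left out, Nr3c1 ran from −0.05 to 0.07, Dusp1 from −0.41 to 0.06 and Klf9 from −0.03 to 0.14. Fkbp5 was at 0.45 in HDM vs. saline and 0.28 in HDM + Dex vs. saline without saline replicates 4 and 5, and in HDM vs. saline at 0.27 below 25% 7SL and −0.69 to 0.17 with each sample left out. In aged vs. adult, rescaling gave Nr3c1 −0.07, Per1 −0.08, Dusp1 −0.07 and Klf9 −0.01, quantile normalization gave Nr3c1 0.00, Per1 −0.05 and Dusp1 −0.01, and quality weights gave Nr3c1 −0.01, Per1 −0.32, Dusp1 −0.21 and Klf9 −0.05. Without saline replicates 4 and 5, Per1 was at −0.20, Zbtb16 at −0.22 and Dusp1 at −0.01. With each sample left out, Nr3c1 ran from −0.06 to 0.22, Hsd11b1 from −0.53 to 0.02, Per1 from −0.05 to 0.32, Dusp1 from −0.09 to 0.28 and Klf9 from −0.02 to 0.33. The depth placed every member well above the detection limit in every sample, the lowest value being 7.02 CPM for Fkbp5.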
